A study of Bos taurus with 32 samples.

Results

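The miR-29 family was followed in 2 fat depots of beef steers. Its members on the array were chosen by name, as the miRNAs bta-miR-29a, bta-miR-29b, bta-miR-29c and bta-miR-29d, which made 4 of the 672 bovine miRNAs measured. Mature miRNAs are short RNAs that bind messenger RNAs and lower their translation or stability. The miR-29 family is best known for repressing messenger RNAs of the extracellular matrix, collagens and elastin among them. In fat, muscle and liver it is also known as a repressor of insulin signalling, and its level rises in insulin-resistant rodents. In the cattle gene table of RefSeq (assembly ARS-UCD2.0), the precursor gene of miR-29a lies beside MIR29B-1 and that of miR-29c beside MIR29B-2, so that mature miR-29b can come from both gene pairs, and MIR29D lies beside MIR29E.

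Samples came from 16 Hereford×Aberdeen Angus cross steers, 8 fed a control diet and 8 a high fat diet whose fat came from added flaxseed. Subcutaneous fat (backfat) and visceral fat (taken around the kidney) of every steer were hybridised, so that the 4 groups had 8 arrays each. The steers had been picked for similar weight, were penned singly and were slaughtered at a similar age. Each slide held 1 group only and the diets were scanned in separate sessions, so that diet and slide cannot be told apart, nor can depot and slide.

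The array gives a total intensity per miRNA, which sums 2 probes of 10 spots each after background subtraction. The detected miRNAs of a control array summed to between 25966 and 79240 and those of a high fat array to between 96838 and 366671, and 115 to 176 and 169 to 259 miRNAs were detected per array. No spot was saturated. The labelling spike-in signal, added in equal amount to every sample, was not higher for high fat samples, with a median of 3.81 on the log10 scale against 3.88 for control samples. Adipose marker miRNAs were present in every group, with a summed scaled level of 0.954 to 3.16, and 1 of the 5 on the array, bta-miR-193a, was never detected. Kidney and epithelial markers summed to at most 0.0379, and 5 of the 8 on the array were never detected.

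By the Feature Extraction call, bta-miR-29a, bta-miR-29b and bta-miR-29c were detected in nearly every sample and bta-miR-29d in few. Bta-miR-29a was detected on 32 of 32 arrays. Bta-miR-29b and bta-miR-29c were each detected on 30, and both were missing from the same arrays, the subcutaneous sample of control steer 405 and the visceral sample of control steer 111. Those were also the arrays with the fewest detected miRNAs of their groups, 118 and 115. Counting only arrays with a probe well above background, bta-miR-29b was present on 6 and 5 of 8 control arrays in subcutaneous and visceral fat and bta-miR-29c on 5 and 4 of 8, and both on all high fat arrays. Bta-miR-29d was detected on 0 of 16 control arrays, on 5 of 8 high fat subcutaneous arrays and on 3 of 8 high fat visceral arrays. With a probe well above background these high fat counts were 2 and 1. By the deposited log2 values it was above 0 on 0 arrays. Its total intensity there was 4.86 to 13.6, and on every array it lay under the common floor set for the comparisons, so that no difference was tested for it. The 8 high fat arrays with a bta-miR-29d signal had a median bta-miR-29a intensity of 2556, against 1095 on the 8 high fat arrays without one. Whether bta-miR-29d differed between diets was therefore not detectable at this signal. The related bta-miR-29e, outside the chosen members, was not detected on any array.

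The 3 measured members all had higher total intensities on the high fat diet before any scaling. On the control diet bta-miR-29a was 24.2 at the lowest, 91.4 at the median and 435.0 at the highest over 16 arrays. On the high fat diet it was 539, 1577 and 4677. Bta-miR-29b had a median of 7.06 and a highest value of 21.4 on the control diet, and ran from 92.4 to 1983 with a median of 633 on the high fat diet. Bta-miR-29c had a median of 12.3 and a highest value of 58.7 on the control diet, and ran from 291 to 2699 with a median of 1102 on the high fat diet. No high fat array overlapped a control array for any of the 3, and the share of all miRNAs that were apart in this way was not counted. Whole arrays were also brighter, since the 75th percentile over the 91 miRNAs detected on all arrays was 115 to 480 for control and 626 to 2823 for high fat arrays.

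**Figure D1:**
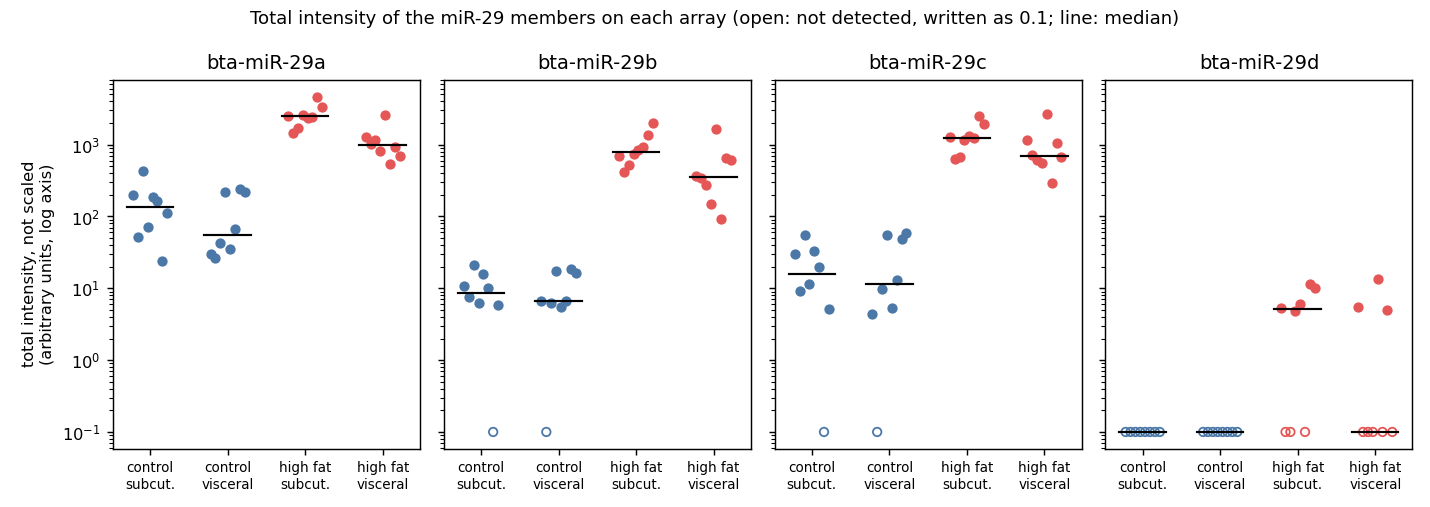
Total intensity (arbitrary units, log axis) of bta-miR-29a, bta-miR-29b, bta-miR-29c and bta-miR-29d on each of the 32 arrays, with 8 arrays per diet and depot, filled points for detected values, open points for undetected ones written as 0.1, and a line at the group median. Bta-miR-29a, bta-miR-29b and bta-miR-29c lie higher on each high fat array than on any control array, while bta-miR-29d has a signal on 8 high fat arrays only. Whole arrays were apart too, with 75th percentiles of 115 to 480 for control and 626 to 2823 for high fat arrays. The share of all miRNAs that were apart was not counted.

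To compare levels, intensities were divided by that 75th percentile and set on the log2 scale, and differences are given on this scale. In subcutaneous fat all 3 members were higher on the high fat diet. Bta-miR-29a had a mean of 0.45 ± 0.21 (SD, n = 8) on the high fat diet and -1.10 ± 0.79 on the control diet. The difference was 1.55 (standard error 0.31, limma adjusted p = 5.6e-05), a 2.92-fold change. Bta-miR-29b had a mean of -1.13 ± 0.49 against -5.06 ± 1.01. It differed by 3.93 (standard error 0.45, limma adjusted p = 4.0e-09), a 15.2-fold change, but by 0.43 with normexp, short of the threshold. Bta-miR-29c had a mean of -0.58 ± 0.34 against -4.32 ± 1.53. It differed by 3.74 (standard error 0.58, limma adjusted p = 1.0e-06), a 13.4-fold change. None of the 3 overlapped between the diets in this depot, a trait whose share over all miRNAs was not counted. The direction of these differences and of those in visceral fat turned for bta-miR-29a in both depots, for bta-miR-29b in visceral fat and for bta-miR-29c in both depots when the 75th percentile was taken over all 672 miRNAs. Of the turned differences only those of bta-miR-29a, at -2.59 and -3.08, were past the threshold. In bulk fat, a change in the number of cells of a type and a change in RNA per cell cannot be told apart.

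In visceral fat the same 3 members were higher on the high fat diet, with the exceptions just given. Bta-miR-29a had a mean of 0.03 ± 0.17 on the high fat diet and -1.33 ± 0.97 on the control diet, a difference of 1.36 (limma adjusted p = 0.00025). Its groups overlapped, since control steer 405 was at -0.03 while high fat steers 204 and 303 were at -0.23 and -0.22. Bta-miR-29b had a mean of -1.46 ± 1.01 against -4.69 ± 1.09, and differed by 3.23 (standard error 0.45, limma adjusted p = 1.6e-07), a 9.41-fold change, but by 0.13 with normexp, short of the threshold. Bta-miR-29c had a mean of -0.33 ± 0.52 against -3.95 ± 1.73, and differed by 3.62 (standard error 0.58, limma adjusted p = 1.6e-06), a 12.3-fold change. Neither of these 2 overlapped between the diets, again without a count of the share over all miRNAs.

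Calls were frequent across the array, so a call by itself says little of the family. Of 233 miRNAs tested, 76.0% passed an adjusted p of 0.05 for diet in subcutaneous fat and 71.7% in visceral fat. Those higher on the high fat diet made 41.6% and 42.1%. Ranked from the highest, bta-miR-29b was at place 10 and bta-miR-29c at place 12 of 233 in subcutaneous fat, and they were at places 16 and 14 in visceral fat. Bta-miR-29a was at places 59 and 69. The median difference of the 91 miRNAs detected on all arrays was -0.91 in subcutaneous and -0.80 in visceral fat. Relative to it, bta-miR-29a was higher by 2.45 and 2.16, bta-miR-29b by 4.83 and 4.03, and bta-miR-29c by 4.65 and 4.42.

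**Figure D2:**
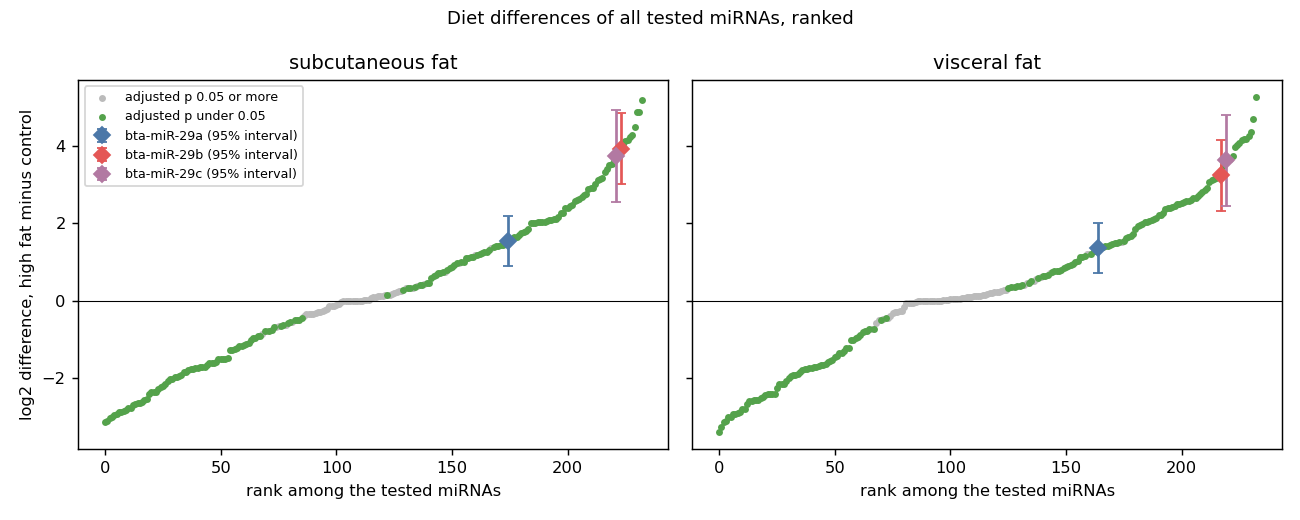
Log2 difference between diets (high fat minus control, vertical axis) of the 233 tested miRNAs ordered by size (horizontal axis, rank) in each depot, with green points for an adjusted p under 0.05, grey points for the rest, and diamonds with 95% intervals for the 3 measured members. Bta-miR-29b at 3.93 and bta-miR-29c at 3.74 sit near the upper end in subcutaneous fat and bta-miR-29a at 1.55 lies nearer the middle, an order taken with the percentile over the 91 commonly detected miRNAs, since with the percentile over all miRNAs the difference of bta-miR-29a is -2.59.

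How the arrays were scaled decided the size of the diet differences, and with the percentile over all miRNAs also the direction in 5 of 6 cases, all but that of bta-miR-29b in subcutaneous fat. With the percentile taken over all 672 miRNAs, the fitted difference of bta-miR-29a was -2.59 in subcutaneous and -3.08 in visceral fat. Both were past the threshold, while the other turned differences were not. On 15 of 16 control arrays and 0 of 16 high fat arrays that percentile was itself the value written for an undetected miRNA. With the deposited log2 values bta-miR-29a differed by 0.15 and 0.29, neither past the threshold, and 14 of the 32 arrays in that table carried no shift from the unscaled values. Relative to the median of the commonly detected miRNAs, the differences of the 3 members lay above 0 in each of the 11 ways of processing plotted. They were 1.83 or more for bta-miR-29a, 1.33 or more for bta-miR-29b and 2.40 or more for bta-miR-29c. Subtracting that median cancels a scaling of whole arrays, so agreement among the ways that differ only in scaling was fixed in advance. Bta-miR-29a in subcutaneous fat was at 2.45 both without scaling and with the percentile over all miRNAs. The smallest relative differences came from normexp, a background correction that adds 50 to every spot. With it bta-miR-29b lost its call in both depots, at 0.43 (limma adjusted p = 0.056) and 0.13 (limma adjusted p = 0.55), while the other 2 members kept theirs. In control subcutaneous fat the brighter bta-miR-29b probe had a median spot intensity of 13.2 and the brighter bta-miR-29c probe 13.1, both below that added value. Its part in the lost call was not tested.

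**Figure D3:**
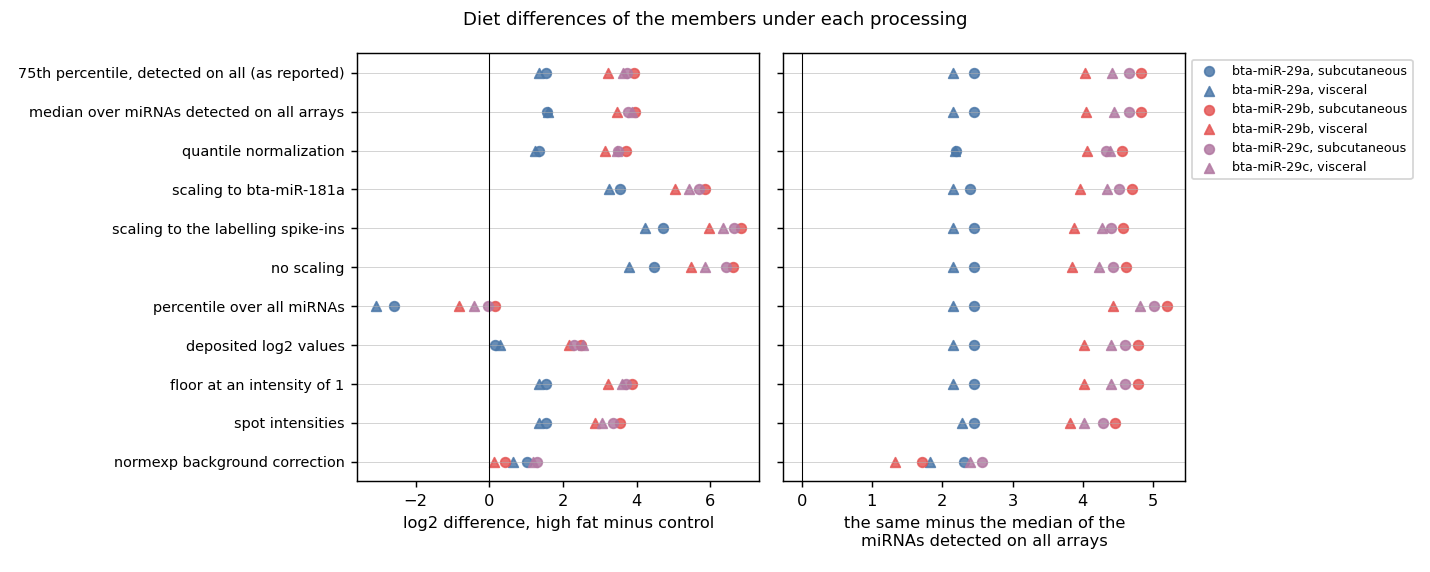
Diet differences of bta-miR-29a, bta-miR-29b and bta-miR-29c (log2, circles for subcutaneous and triangles for visceral fat) under 11 ways of processing, shown as fitted on the left and minus the median of the 91 miRNAs detected on all arrays on the right. On the left bta-miR-29a runs from -2.59 to 4.71 in subcutaneous fat and turns below 0 with the percentile over all miRNAs, where bta-miR-29b in visceral fat and bta-miR-29c in both depots are below 0 too. On the right all points lie above 0, where ways that differ only in scaling nearly agree by construction.

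The members did not differ by the same amount between diets, which could be read within each array, without any scaling. The log2 ratio of one member to another was taken on each array, with an undetected value at the lowest intensity detected on that array. The level of such a ratio depends on the probes, so only its change between groups was read. The ratio of bta-miR-29b to bta-miR-29a had a mean of -3.68 ± 0.63 (SD, n = 8) in control and -1.58 ± 0.37 in high fat subcutaneous fat. Its rise with the high fat diet was 2.10, or 4.29-fold, without overlap (exact permutation test, two-sided, adjusted p = 0.00062 over 12 tests). In visceral fat it had means of -3.11 ± 0.57 and -1.49 ± 0.91 and was higher by 1.63, or 3.09-fold, with overlap (exact permutation test, adjusted p = 0.0023). With the high fat diet the ratio of bta-miR-29c to bta-miR-29a was higher by 1.92 in subcutaneous and 2.02 in visceral fat, or 3.78-fold and 4.04-fold, without overlap in either depot (exact permutation test, adjusted p = 0.00062 for each). The p behind each adjusted p of 0.00062 was 0.00016, the smallest that splits of 8 against 8 arrays can give. With normexp the bta-miR-29b ratio turned to -0.60 and -0.50, neither past the threshold, and the bta-miR-29c ratio fell to 0.26 in subcutaneous fat.

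The ratio of bta-miR-29c to bta-miR-29b gave another picture. It had means of 0.84 ± 0.58 (n = 7) and 0.55 ± 0.30 (n = 8) on the control and high fat diets in subcutaneous fat, a difference of -0.29 (exact permutation test, adjusted p = 0.32). In visceral fat it differed by 0.28 (exact permutation test, adjusted p = 0.57). With normexp these differences were 0.85 and 1.07, both past the threshold.

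Since whole arrays were brighter on the high fat diet, the 2 arrays of most alike bta-miR-29a intensity across diets were set side by side, a pair chosen after the values were seen. The subcutaneous array of control steer 209 had intensities of 435.0 for bta-miR-29a, 21.4 for bta-miR-29b and 55.6 for bta-miR-29c. The visceral array of high fat steer 303 had 539, 92.4 and 291. The second array was thus 1.24-fold brighter for bta-miR-29a and 1.30-fold brighter at its 75th percentile, and 4.32-fold and 5.23-fold brighter for bta-miR-29b and bta-miR-29c. These are single arrays of different depots and carry no test.

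**Figure D4:**
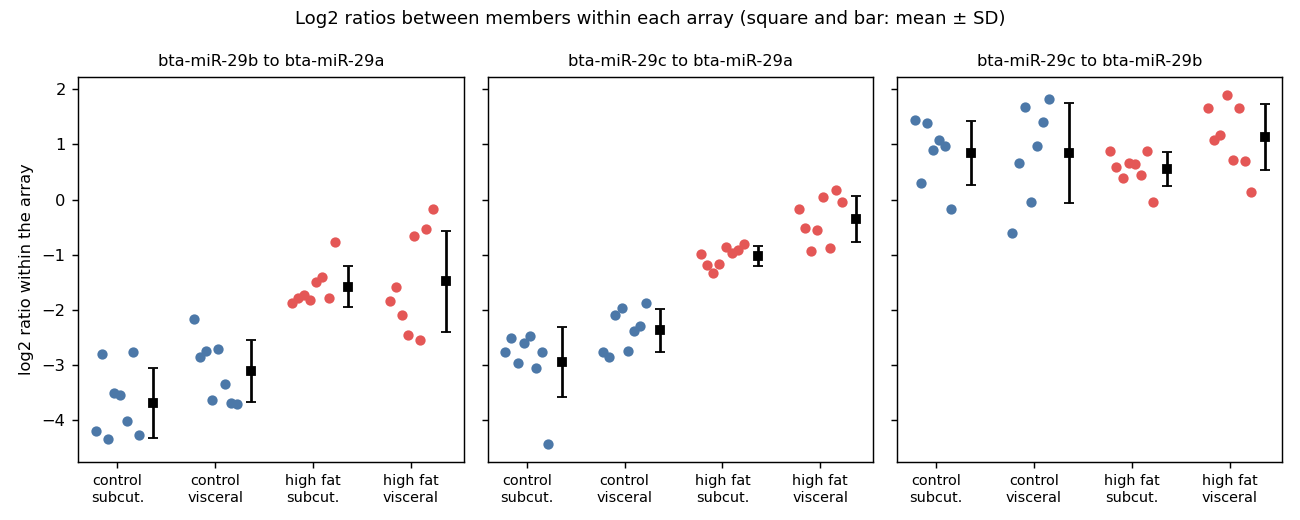
Log2 ratio between 2 members on each array (vertical axis) by diet and depot, with points for arrays and a square with a bar for the group mean ± SD, where arrays on which both members were undetected are left out. The ratios of bta-miR-29b and bta-miR-29c to bta-miR-29a lie higher on the high fat diet in both depots, as with means of -1.03 against -2.95 for bta-miR-29c in subcutaneous fat, except that with normexp the bta-miR-29b ratio turns to -0.60 and -0.50, while the ratio of bta-miR-29c to bta-miR-29b overlaps between diets.

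Both probes of bta-miR-29a, of bta-miR-29b and of bta-miR-29c were brighter on high fat arrays. The brighter and the dimmer bta-miR-29a probe differed by 1.52 and 1.64 in subcutaneous fat. Those of bta-miR-29b differed by 3.49 and 3.38, and those of bta-miR-29c by 3.32 and 3.42. In visceral fat the 2 probes of a member differed by 1.33 and 1.43, by 2.79 and 2.58, and by 3.03 and 3.102 in the same order. The dimmer bta-miR-29b probe was well above background on 0 of 16 control arrays and on 15 of 16 high fat arrays, so that on the control diet its level, and the differences taken from it, were bounds only. The brighter and the dimmer bta-miR-29c probe were well above background on 5 and 4 of 8 control arrays in subcutaneous fat and on 4 and 3 of 8 in visceral fat.

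No member passed the test between depots. On the control diet the visceral minus subcutaneous difference was -0.24 for bta-miR-29a (95% interval -0.88 to 0.40), 0.37 for bta-miR-29b (-0.56 to 1.29) and 0.37 for bta-miR-29c (-0.81 to 1.55). On the high fat diet it was -0.42 (-1.06 to 0.22), -0.33 (-1.25 to 0.60) and 0.25 (-0.93 to 1.43) in the same order. The smallest limma adjusted p was 0.36, and 0 of the 3 had an unadjusted p under 0.05 on either diet. Over all 233 miRNAs, 18.9% passed between depots in control steers and 26.2% in high fat steers. The methods' t-test, adjusted by Benjamini-Hochberg, called bta-miR-29a on the high fat diet, where 7 of 8 steers had a lower level in visceral fat. Its high fat SDs of 0.21 and 0.17 were far under the control SDs of 0.79 and 0.97, which the limma fit pools. Unscaled values called both bta-miR-29a, at -1.29, and bta-miR-29b, at -1.19, in that comparison. High fat visceral arrays were dimmer as a whole, with a median 75th percentile of 988 against 1752 for subcutaneous arrays, and unscaled differences include this. The share of all miRNAs called between depots without scaling was not counted.

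The diet difference did not pass a test of difference between depots for any member. The interaction was -0.19 for bta-miR-29a (95% interval -1.09 to 0.72), -0.69 for bta-miR-29b (-1.998 to 0.62) and -0.12 for bta-miR-29c (-1.79 to 1.55). The limma adjusted p was 0.76 or more, 0 of the 3 had an unadjusted p under 0.05, and 1.72% of all miRNAs passed.

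**Figure D5:**
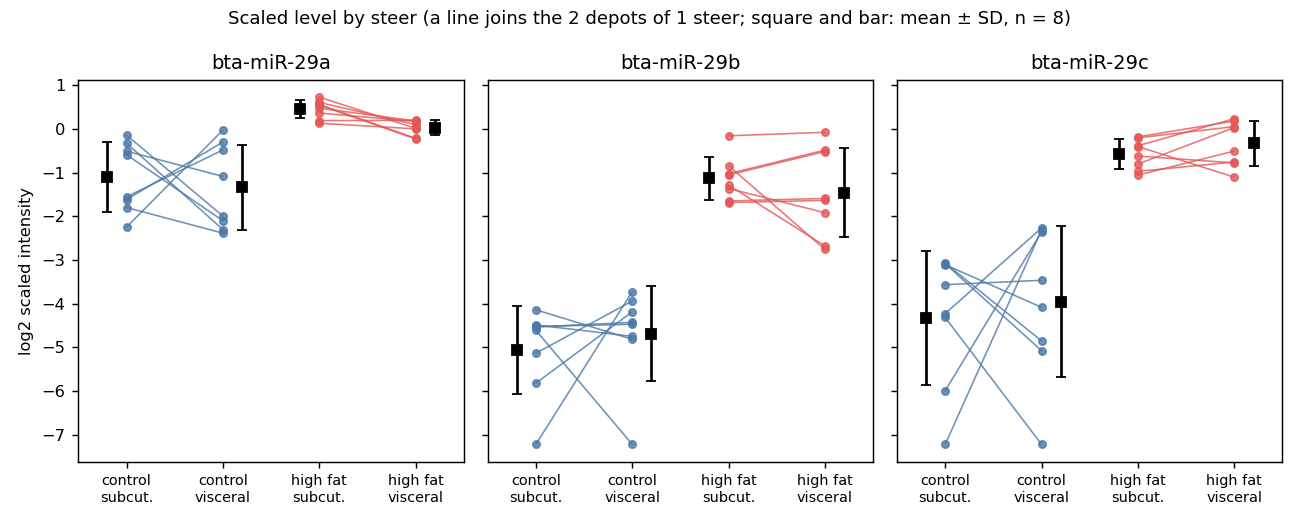
Log2 scaled intensity (vertical axis) of bta-miR-29a, bta-miR-29b and bta-miR-29c by diet and depot, with a line joining the 2 depots of 1 steer and a square with a bar for the mean ± SD (n = 8). High fat steers lie close together for bta-miR-29a, with SDs of 0.21 and 0.17, and control steers spread widely and cross between the depots; with the percentile over all miRNAs the diet difference of bta-miR-29a turns to -2.59 and -3.08.

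Within arrays, the ratio of bta-miR-29c to bta-miR-29a did differ between depots on the high fat diet, where depot and slide cannot be told apart. The ratio of bta-miR-29c to bta-miR-29a on the high fat diet had means of -1.03 ± 0.18 in subcutaneous and -0.36 ± 0.42 in visceral fat. It was higher in visceral fat by 0.67, or 1.59-fold, and in 8 of 8 steers (exact permutation test, adjusted p = 0.0041, and adjusted p = 0.047 in an exact sign-flip test within steers). The lowest visceral value was -0.93 and the highest subcutaneous value -0.81, so that the groups overlapped. On the control diet the same ratio was higher in visceral fat by 0.57, in 5 of 8 steers (exact permutation test, adjusted p = 0.0497). The paired sign-flip test gave an adjusted p of 0.16 there, and the call was lost when any of 10 arrays was left out, among them the subcutaneous array of steer 410, without which the difference was 0.36. The ratio of bta-miR-29b to bta-miR-29a differed between depots by 0.57 in control and 0.10 in high fat steers, neither past the threshold (exact permutation test, adjusted p = 0.12 and 0.85).

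Bta-miR-29a varied more among control steers than among high fat steers, with SDs of 0.79 and 0.97 against 0.21 and 0.17, and the control steers were not ordered alike in the 2 depots. In control subcutaneous fat bta-miR-29a lay between -0.59 and -0.14 in steers 108, 209, 307 and 308, and between -2.25 and -1.55 in steers 111, 211, 405 and 410. In visceral fat of the same diet, steers 211, 405 and 410 were the highest, at -0.30, -0.03 and -0.48. Steers 108, 209 and 307 were at -2.30, -1.99 and -2.10, and steers 111 and 308 at -2.39 and -1.09. Within-steer differences thus ran from -1.98 to 2.22 in control steers and from -0.78 to 0.01 in high fat steers. In control visceral fat the array's own brightness moved with this, since the 3 highest arrays had 75th percentiles of 245 to 301 and the other 5 arrays 138 to 168. In control subcutaneous fat it did so only in part. Steers 111, 211 and 405 had 183, 218 and 115, but steer 410 had 328, beside 251, 282 and 231 for steers 108, 307 and 308 and 480 for steer 209. The part of brightness in the result was not tested.

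On the high fat diet the visceral level of bta-miR-29b fell into separate sets. Steers 302, 411 and 412 were at -0.48, -0.52 and -0.08, and the other 5 steers between -2.76 and -1.59. Their ratios of bta-miR-29b to bta-miR-29a on the linear scale were 0.629, 0.692 and 0.886, against 0.171 to 0.332. In subcutaneous fat the same steers had ratios of 0.354, 0.291 and 0.589, and the other 5 had 0.273 to 0.379, so that steer 412 alone was apart in both depots. The labelling spike-in signal of these 3 visceral arrays was 3.72, 3.57 and 3.52 on the log10 scale, beside 3.65 for steer 303 and 3.79 to 3.84 for the other 4, and its part in the result was not tested. Bta-miR-29c in these 3 visceral samples was at 0.23, 0.18 and 0.05, beside 0.03 in steer 103 and -1.10 to -0.51 in the other 4.

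Within high fat subcutaneous fat the members varied together from steer to steer. For bta-miR-29a and bta-miR-29c Pearson's r was 0.88 and Spearman's rho 0.90 (n = 8 steers, exact permutation test, p = 0.0043 and 0.0046, adjusted p of r = 0.0091 over 12 relations), and r was 0.85 without the 2 steers farthest from the median. For bta-miR-29b and bta-miR-29c r was 0.80 and rho 0.76 (exact permutation test, p = 0.011 and 0.037, adjusted p of r = 0.016), and r was 0.87 without 2 steers. For bta-miR-29a and bta-miR-29b r was 0.73 and rho 0.79 (exact permutation test, p = 0.035 and 0.028, adjusted p of r = 0.043). Without 2 steers r fell to 0.42, and whether the relation rests on those steers was not tested. In high fat visceral fat the relations of bta-miR-29a to bta-miR-29b and bta-miR-29c passed no threshold (exact permutation test, adjusted p = 0.098 and 0.084). That of bta-miR-29b to bta-miR-29c passed it (exact permutation test, adjusted p = 0.0091). On the control diet each relation passed it (exact permutation test, adjusted p = 0.0045 to 0.016), with 1 array of each group at the floor. No r is given for high fat visceral fat or the control diet, where levels fell into separate sets of steers. The 3 members share 1 array and 1 scaling value, which alone can make them vary together.

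The miRNAs whose deviations from the group means were most like those of each member, among the other 90 detected on all arrays, were given as a description over the 32 arrays. For bta-miR-29a they were bta-miR-27b (r = 0.96), bta-miR-15a (r = 0.92) and bta-miR-30b-5p (r = 0.90). For bta-miR-29c they were bta-miR-30b-5p (r = 0.90), bta-miR-15a (r = 0.89) and bta-miR-27b (r = 0.81). For bta-miR-29b they were bta-miR-15a (r = 0.76), bta-miR-34a (r = 0.67) and bta-miR-497 (r = 0.67). Between members r was 0.87 for bta-miR-29a with bta-miR-29c, 0.85 for bta-miR-29b with bta-miR-29c and 0.64 for bta-miR-29a with bta-miR-29b. All these points share arrays and scaling.

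Other miRNAs known to act on the same processes were read as lists. Of 12 tested miRNAs known to restrain matrix genes or fibrosis, 9 were higher and 1 lower in subcutaneous fat of high fat steers, and 9 were higher and 0 lower in visceral fat. The median differences of the 12 were 0.90 and 1.36. Among those called higher in both depots, bta-miR-19a and bta-miR-30e-5p lay at the floor on every control array, so that they could only be called higher. Over all 233 tested miRNAs 97 were higher and 80 lower in subcutaneous fat, 98 were higher and 69 lower in visceral fat, and the medians were 0.10 and 0.17. Bta-miR-19b, which represses connective tissue growth factor, was higher by 5.17 and 4.68 (limma adjusted p = 3.0e-11 and 2.7e-10). Bta-miR-101, a repressor of the histone methyltransferase EZH2, was higher by 4.86 and 4.37 (limma adjusted p = 7.7e-16 and 9.7e-15). Of 7 tested miRNAs known to promote fibrosis, 5 were higher and 2 lower in both depots, with medians of 1.71 and 1.86, beside 41.6% and 42.1% higher over all tested miRNAs. Bta-miR-21 was higher by 3.83 and 3.48 (limma adjusted p = 1.0e-13 and 1.0e-12), and bta-miR-199b by 2.91 and 2.90 (limma adjusted p = 4.2e-11 and 5.0e-11). With the percentile over all miRNAs, 4 of the matrix-restraining miRNAs were lower and 2 higher in subcutaneous fat, and 7 of the 8 fibrosis-promoting miRNAs were lower and 0 higher.

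Of 17 tested miRNAs known to act on insulin signalling, as members of miR-29 do, 7 were higher and 7 lower in subcutaneous fat of high fat steers and 8 were higher and 8 lower in visceral fat, shares higher that were near the 41.6% and 42.1% over all tested miRNAs. By the mean size of the difference over both depots the largest were those of bta-let-7b and bta-let-7c, which belong to the let-7 family, known to repress the insulin receptor and its substrate. They differed by -2.75 and -2.63 in subcutaneous fat (limma adjusted p = 4.2e-16 and 3.5e-16) and by -3.12 and -2.89 in visceral fat (limma adjusted p = 1.8e-17 and 2.3e-17). With unscaled values 15 of the 17 were higher and 0 lower in subcutaneous fat, and with the percentile over all miRNAs 0 were higher and 14 lower. Bta-miR-33a, 1 of the 8 called higher in visceral fat above, lay at the floor on every control array, so that it could only be called higher.

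Marker miRNAs of other cell types were also called for diet. Of all 233 tested miRNAs 76.0% and 71.7% were called in subcutaneous and visceral fat, and 41.6% and 42.1% were higher. Counts of a few markers beside these shares say little of a cell type. Both endothelial markers, bta-miR-126 and bta-miR-126*, were higher on the high fat diet in both depots, and their summed scaled level was 0.578 to 2.42 in control steers and 3.57 to 8.23 in high fat steers. With the percentile over all miRNAs 1 of them was lower and 1 higher in subcutaneous fat. Of 3 fibroblast markers 2 were higher and 1 lower in both depots, and their summed level was 0.967 to 2.57 in control steers and 1.48 to 3.80 in high fat steers. Of 4 tested blood and immune markers 2 were higher in each depot, with 1 lower in subcutaneous and 2 lower in visceral fat, and of 2 smooth muscle markers 1 was higher. The blood and immune marker bta-miR-142 lay at the floor on every control array, so that it could only be called higher. With the percentile over all miRNAs the 3 fibroblast and the 3 adipose markers were lower in both depots, 1 blood and immune marker was higher and 2 lower, and 1 smooth muscle marker was lower. Kidney and epithelial markers summed to 0 on control arrays, so the 1 of them tested, bta-miR-194, was at the floor there. Its differences of 1.43 and 1.97 set high fat values against that floor and are bounds only. Of 3 tested adipose markers, bta-miR-103 and bta-miR-107 were higher in both depots and bta-miR-378 was lower in subcutaneous fat. Muscle markers summed to at most 0.228, with 1 of 3 tested higher on the high fat diet, and bta-miR-208a and bta-miR-208b were never detected. The liver marker bta-miR-122 was at 0 in subcutaneous fat and at most 0.427 in visceral fat. The part of these cell types in the differences of the miR-29 members was not tested.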

How the data were processed

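Total RNA of 32 fat samples was labelled with Cy3 and hybridised to a custom 1-colour Agilent array. Per the file headers, Feature Extraction 10.7.3.1 subtracted the local background and summed the spots of each miRNA to a total intensity, written as 0.1 where undetected. The authors also deposited log2 values scaled in GeneSpring to the 75th percentile of each array, with 0 for undetected ones, and the 244 features of that table with values above 0 were matched to miRNAs by value within 1e-05. The samples were grouped by diet and depot from their titles. Here, intensities were divided by the 75th percentile over the 91 miRNAs detected on all 32 arrays, raised to a common floor (log2 of -7.22) and set on the log2 scale. The 240 miRNAs detected on at least 8 arrays were kept, 7 at the floor throughout were dropped, and 233 were tested in 1 limma fit (3.58.1, R 4.3.3) over the 4 groups with Benjamini-Hochberg adjustment. The fit was tested on simulated data. Where the design had foreseen mean spot signals for normexp, median spot signals were used.

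Ratios between members were tested by exact permutation of arrays (numpy 2.4.6, scipy 1.17.1). The depots of a steer are paired, since both come from 1 animal; the correlation of their deviations from group means ran from -0.39 to 0.65. The limma fit of the depots has no block, and the fit with the steer as a block was an alternative. Other alternatives changed the scaling, background, floor, filter, block and test, and left out each array in turn. The array's signal over background and the number of arrays limit the precision. The members, lists and tests were chosen with earlier results of these data known. All members and, per list, the 2 miRNAs with the largest diet difference called in both depots were named. Mature sequences and base composition were not analysed here.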

Additional observations from a re-analysis of the deposited data

Results flagged for a closer look

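Of 24 groups of values examined for a sample apart from the rest, 3 had one, where chance flags about 1 group in 20. The visceral sample of control steer 111 was at -7.22 for bta-miR-29b on the log2 scale, the common floor, since the miRNA was not detected there; the other 7 samples lay between -4.82 and -3.72. The subcutaneous sample of high fat steer 412 had a log2 ratio of bta-miR-29b to bta-miR-29a of -0.76, where the other 7 lay between -1.88 and -1.40. The subcutaneous sample of control steer 410 had a log2 ratio of bta-miR-29c to bta-miR-29a of -4.44, where the other 7 lay between -3.05 and -2.48; without it the depot difference of that ratio on the control diet was 0.36 in place of 0.57.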

How the results depend on the processing

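All 6 diet differences of the 3 members stayed past the threshold in the same direction with any 1 array left out, from 1.38 to 1.68 and 1.21 to 1.55 for bta-miR-29a in subcutaneous and visceral fat, 3.62 to 4.06 and 2.87 to 3.42 for bta-miR-29b, and 3.33 to 3.92 and 3.16 to 3.86 for bta-miR-29c. With the percentile over all miRNAs 1 of 3 members was called per depot, at -2.59 and -3.08 for bta-miR-29a, 0.15 and -0.81 for bta-miR-29b and -0.029 and -0.42 for bta-miR-29c, and the depot difference of bta-miR-29a on the control diet turned to 0.083. The methods' t-test with Bonferroni correction called 1 member in visceral fat and 2 in subcutaneous fat, without bta-miR-29a (adjusted p = 0.16). With normexp bta-miR-29b lost its call in both depots, at 0.43 and 0.13. Between depots on the high fat diet, unscaled values, which include the dimmer visceral arrays, called 2 members. In that comparison normexp and the methods' t-test, adjusted by Benjamini-Hochberg, called 1 each. Depot differences that were past no threshold turned without scaling to -0.043 (bta-miR-29b) and -0.042 (bta-miR-29c) on the control diet and -0.62 (bta-miR-29c) on the high fat diet, where bta-miR-181a gave -0.0016 and the labelling spike-ins -0.27. The interactions of bta-miR-29a and bta-miR-29c turned to 0.010 and 0.093 with the median and to 0.14 and 0.24 with the deposited values. With 1 array left out they ran from -0.34 to 0.0010 and from -0.59 to 0.29, the control depot difference of bta-miR-29c from -0.046 to 0.83, and the depot differences of the ratios of bta-miR-29b to bta-miR-29a (high fat) and of bta-miR-29c to bta-miR-29b (control) from -0.090 to 0.25 and from -0.17 to 0.24.

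With normexp the diet differences of the ratio of bta-miR-29b to bta-miR-29a turned to -0.60 and -0.50, and that of bta-miR-29c to bta-miR-29a in subcutaneous fat fell to 0.26. The ratio of bta-miR-29c to bta-miR-29b turned from -0.29 to a value of 0.85 in subcutaneous fat and became 1.07 in visceral fat. The 50 that normexp adds lies above the median control spot signal of every bta-miR-29b and bta-miR-29c probe and of the dimmer bta-miR-29a probe. Its part in these changes was not tested. With the steer as a block, the pairing changed no limma call of a member. It left the control depot difference of the ratio of bta-miR-29c to bta-miR-29a short of the threshold, at an adjusted p of 0.16, and turned that of bta-miR-29c to bta-miR-29b to -0.18. Undetected arrays set to their own limit, an alternative chosen after seeing the data, gave diet differences of 3.65 and 2.99 for bta-miR-29b and 3.47 and 3.38 for bta-miR-29c. Signal near background limits bta-miR-29b, bta-miR-29c and bta-miR-29d on control arrays.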

Other observations

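On the high fat diet the log2 ratio of bta-miR-29c to bta-miR-29a in visceral fat went with that in subcutaneous fat of the same steer, a relation looked for after the values were seen. Pearson's r was 0.74 and Spearman's rho 0.74 (n = 8 steers, exact permutation test, p = 0.044 and 0.046), but the adjusted p of r over 5 such relations was 0.11, past no threshold, and r was 0.57 without the 2 steers farthest from the median. The members made up 0.0839% to 0.670% of the summed intensity of detected miRNAs on control arrays and 0.738% to 2.52% on high fat arrays, ranges that did not overlap. Such ranges were not taken for other miRNAs, so this is not shown to be particular to the family.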
